A study of Mus musculus with 28 samples.

Results

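The genes that surround Rai1 on mouse chromosome 11 were followed through nascent RNA libraries of forebrain cultures. Members were taken by place alone: every entry of the authors' FPKM table on chr11 whose interval starts between positions 59500000 and 61800000, less 1 gene set aside because its symbol begins with Kcn. This gave 50 of the 23944 entries of that table, in a stretch of 2.3 Mb in the coordinates of mm9, the build named in the submitters' processing notes. Of the 50, 47 are in the comparison tables and 3 are microRNA genes listed with an FPKM only. Both genes that mark the interval, Rai1 and Srebf1, are among the members, side by side.

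The human counterpart of this stretch is the interval whose deletion causes Smith-Magenis syndrome, a neurodevelopmental disorder with disturbed sleep, and whose duplication causes Potocki-Lupski syndrome. RAI1, a chromatin protein that binds promoters and enhancers, is the gene held responsible for most features of the former. The neighbours that are deleted with it include the lipid transcription factor SREBF1, the lysosomal regulator FLCN, the fatty aldehyde dehydrogenase ALDH3A2 and the kinase genes MAPK7 and ULK2.

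The cultures came from cortex and hippocampus of CD1 embryos at embryonic day 18, pooled over embryos, and held neurons, astrocytes and oligodendrocyte precursor cells, so each value is a mixture over cell types. Lentivirus was added on day 14 in vitro and carried an shRNA directed at Rai1 in the arm called shRai1 or a control shRNA in the arm called shCtrl. On day 17 the cells received vehicle (water), 1 µM tetrodotoxin (TTX), which blocks sodium channels and stops action potentials, or 20 µM bicuculline (BIC), a blocker of inhibitory transmission that raises activity, for 4 hours. Bromouridine (2 mM) was present for the last 20 minutes, and the labelled RNA was captured and sequenced (Bru-seq), so reads report transcription in that window. There were 3 libraries each for shCtrl TTX, shRai1 vehicle, shRai1 TTX and shRai1 BIC, and 2 each for shCtrl vehicle and shCtrl BIC. The replicates are biological per the series' design text. By their labels, shCtrl vehicle holds replicates 1 and 2 and shCtrl BIC replicates 2 and 3. A difference between replicates can therefore enter the BIC comparison in shCtrl, and this was not tested. The values are the authors' summaries, with no value per library, and depth per library is unknown. In these bulk cultures, fewer cells of a type and less RNA per cell cannot be told apart.

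Markers of all 3 named cell types were transcribed in shCtrl vehicle. The 6 neuronal markers ranged from 24.5 to 97.1 FPKM and the 5 oligodendrocyte precursor markers from 3.12 to 70.9 FPKM, whereas astrocyte markers reached 81.7 FPKM (Gfap) with Gjb6 at 0.0784. Summed FPKM in shCtrl vehicle, TTX and BIC was 371, 328 and 452 for the neuronal list, 147, 115 and 110 for the astrocyte list, and 129, 92.0 and 108 for the oligodendrocyte precursor list. Members of the neuronal list went opposite ways under BIC, with Gad1 at 97.0 FPKM in vehicle and 148 in BIC, Gad2 at 46.8 and 86.7, Slc17a7 at 73.7 and 42.1, and Rbfox3 at 24.5 and 18.2. Microglial markers summed to 19.3, 20.1 and 28.1 FPKM, endothelial markers to at most 1.51 and fibroblast markers to at most 2.95, and no marker was at 0 in shCtrl vehicle. The part of these shifts in the changes below was not tested.

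Promoters are shown for 5 members because their transcription moved most, moved in contrast with a neighbour, or changed where the element described next is present. Each is the RefSeq sequence on GRCm38.p6 from 250 bases before to 50 after the start, read 5′ to 3′. Capitals mark the cyclic AMP response element TGACGTCA, bound by CREB, or where that is absent its core TGACG on either strand. Flcn, whose window holds the same element as the window of its divergent neighbour Gm16062, and Dhrs7b have the full element. Lrrc48 and Ulk2 have the core, and Map2k3 has neither.
Flcn, chr11:59809990-59810289, minus strand: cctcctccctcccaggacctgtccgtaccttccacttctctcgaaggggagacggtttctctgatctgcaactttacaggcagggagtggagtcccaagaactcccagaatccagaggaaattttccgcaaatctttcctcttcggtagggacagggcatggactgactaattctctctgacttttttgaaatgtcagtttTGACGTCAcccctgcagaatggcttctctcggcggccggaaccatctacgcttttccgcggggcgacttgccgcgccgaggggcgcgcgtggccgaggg
Dhrs7b, chr11:60830381-60830680, plus strand: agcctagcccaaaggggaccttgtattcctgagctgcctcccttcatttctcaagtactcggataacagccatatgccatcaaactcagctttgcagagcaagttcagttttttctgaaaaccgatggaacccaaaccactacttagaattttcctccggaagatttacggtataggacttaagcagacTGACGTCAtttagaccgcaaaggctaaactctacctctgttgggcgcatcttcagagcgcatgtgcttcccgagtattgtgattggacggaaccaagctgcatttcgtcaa
Lrrc48, chr11:60353130-60353429, plus strand: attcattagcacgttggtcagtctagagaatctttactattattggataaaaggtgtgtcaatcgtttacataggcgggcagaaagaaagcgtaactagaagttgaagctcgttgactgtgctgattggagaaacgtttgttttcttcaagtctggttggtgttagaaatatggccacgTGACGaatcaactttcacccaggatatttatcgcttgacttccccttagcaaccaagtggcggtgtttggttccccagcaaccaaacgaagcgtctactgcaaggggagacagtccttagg
Ulk2, chr11:61855043-61855342, minus strand: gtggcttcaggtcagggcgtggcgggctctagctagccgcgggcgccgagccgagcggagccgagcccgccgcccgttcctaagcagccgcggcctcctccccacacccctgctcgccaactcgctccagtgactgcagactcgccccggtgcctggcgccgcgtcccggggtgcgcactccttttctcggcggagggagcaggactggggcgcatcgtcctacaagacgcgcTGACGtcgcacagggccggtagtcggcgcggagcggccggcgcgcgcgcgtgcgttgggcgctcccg
Map2k3, chr11:60931804-60932103, plus strand: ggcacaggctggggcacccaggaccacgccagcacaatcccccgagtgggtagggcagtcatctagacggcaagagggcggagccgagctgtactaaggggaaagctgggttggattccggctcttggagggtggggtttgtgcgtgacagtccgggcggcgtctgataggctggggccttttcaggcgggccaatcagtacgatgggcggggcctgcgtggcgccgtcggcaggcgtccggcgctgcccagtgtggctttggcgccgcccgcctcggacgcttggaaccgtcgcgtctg

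A promoter was found for 38 of the 47 members in the comparison tables, 36 by symbol and 2 by an older symbol (Lrrc48 as Drc3, Gm16515 as Natd1). The full element TGACGTCA was in 3 of the 38 (7.89%) and in 2.62% of the 16768 genes of the comparison tables with a promoter. The core TGACG, which the full element contains, was in 14 of the 38 (36.8%) against 26.8%. The E-box CACGTG, searched on both strands like the others, was in 9 of the 38 (23.7%) against 9.18%, namely Akap10, Aldh3a2, Atpaf2, Drg2, Gid4, Gm16515, Lrrc48, Mief2 and Pld6. The AP-1 site TGANTCA was in 2, Tom1l2 and Gm16515 (5.26% against 8.36%). Windows of divergent neighbours overlap, so 1 match can count under both: 6 of the 14 members with the core share a match with their neighbour (Flcn and Gm16062, Med9 and Med9os, Atpaf2 and Gid4), as do Atpaf2 and Gid4 for the E-box. These are matches of letters in a short window and are given as a description.

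Most of the interval was transcribed in these cultures, at levels that ran over more than 2 orders of magnitude. FPKM scales reads by gene length and library size, and levels of different genes are compared on it here. It did not follow the counts in every member. Mfap4 averaged 1.52 FPKM over the 6 columns at a mean normalized count of 0.80, and Slc5a10 averaged 0.493 at 57.9. The order of genes by FPKM, and the FPKM cut-offs used below, carry that uncertainty. The median member of the comparison tables had 7.36 FPKM in shCtrl vehicle, against 4.07 over all genes of those tables. Usp22, the deubiquitinase of the SAGA coactivator, was highest among them at 60.9 FPKM, with the authors' interval from 47.2 to 74.5, which overlaps no other of these members. A group with overlapping intervals followed: Tom1l2, an endosomal sorting adaptor (31.3, from 23.7 to 38.9), Srebf1 (29.9, from 18.3 to 41.5), Epn2, the endocytic adaptor epsin (29.1, from 22.4 to 35.8), Atpaf2, an assembly factor of ATP synthase (24.7, from 18.1 to 31.3), and B9d1, a protein of the ciliary transition zone (22.2, from 13.9 to 30.5). Rai1 (chr11:59918515-60034106) had 19.8 FPKM, from 12.8 to 26.7, and did not stand apart from these 5. Its mean normalized count of 6523 was above that of every other member. At the low end, Myo15, a myosin of inner ear hair cells, had 0.189 FPKM and the aldehyde dehydrogenase Aldh3a1 had 0.103, and the lymphocyte receptor gene Tnfrsf13b and the transporter gene Slc47a2 were listed at 0 in shCtrl vehicle. Of the 47, 35 averaged 50 or more normalized counts and 7 averaged under 10.

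**Figure D1:**
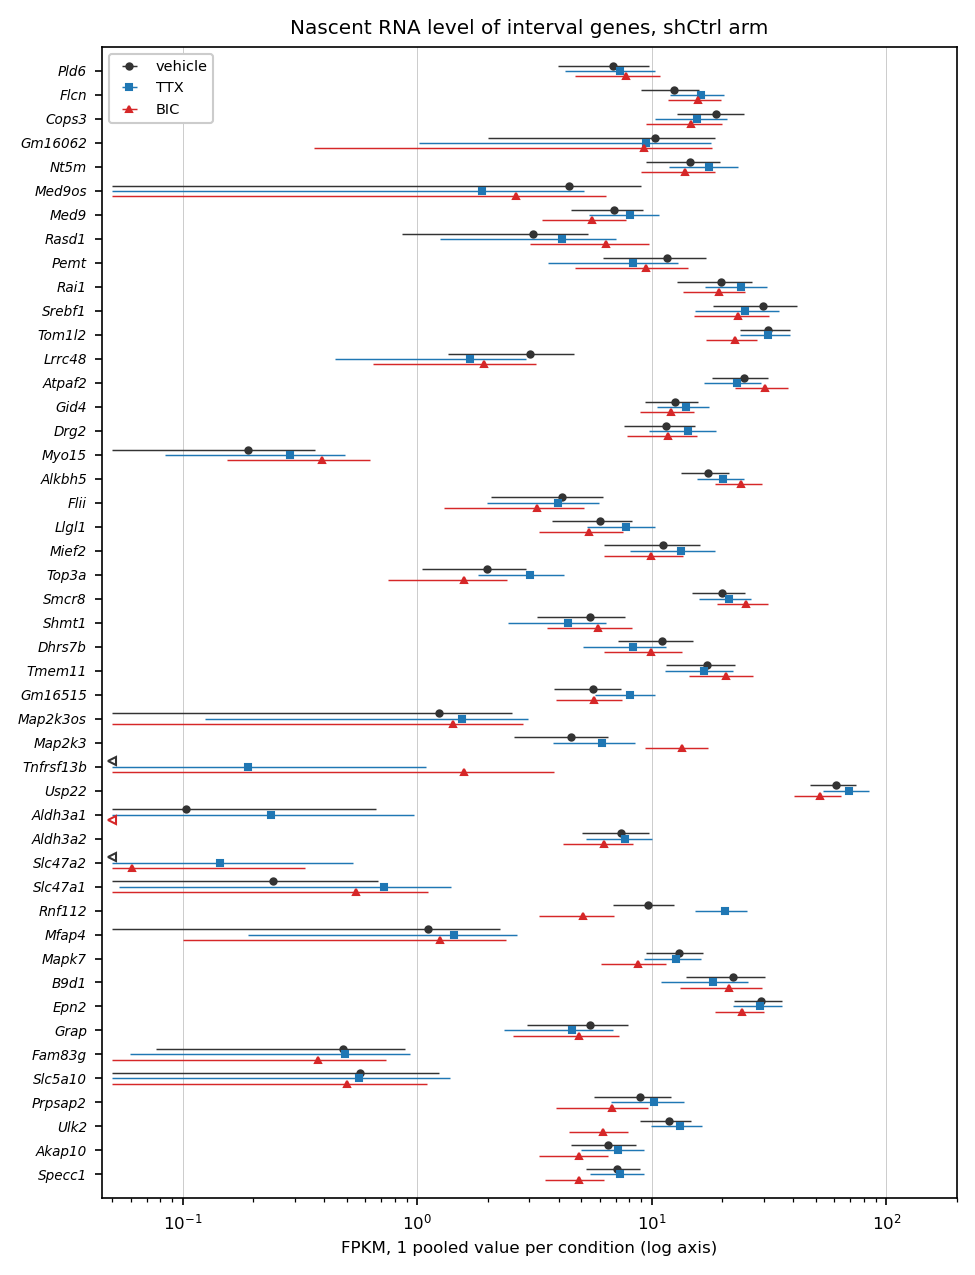
Pooled FPKM of the 47 interval genes of the comparison tables in shCtrl cultures given vehicle, TTX or BIC, 1 value per condition, in chromosomal order from top to bottom. The axis is logarithmic, bars are the authors' intervals, and open arrowheads at the left edge mark values at or under 0.05, among them those listed at 0. Usp22 is the highest at 60.9 FPKM in vehicle, and the Rnf112 values are 20.4 in TTX, 9.65 in vehicle and 5.10 in BIC, with the vehicle and BIC intervals overlapping.

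The microRNA genes gave far larger FPKM values. Mir5100, inside the interval of Mief2, was listed at 19814 FPKM in shCtrl vehicle, with bounds from 5355 to 34274. Mir6921 and Mir6922, inside the shared interval of Rai1 and Srebf1, were listed at 644 FPKM (from 0 to 3042) and 412 FPKM (from 353 to 470). FPKM divides by length, and whether these reads came from the microRNA or the host gene cannot be told from the table. The mature product of Mir5100, as RefSeq gives it with its seed (bases 2 to 8) in capitals, is shown because this entry has the highest FPKM of the interval.
miR-5100: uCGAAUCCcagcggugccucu

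Silencing of the network raised more members than it lowered. Under TTX in shCtrl, the authors' deposited table (DESeq2) had 14 of 40 members higher and 0 lower at an adjusted p under 0.05. Among all 15464 such genes in the authors' deposited table, 11.8% rose and 14.9% fell. By unadjusted p under 0.05, 1 of 47 members was lower there, Srebf1, against 14.1% of all genes in the authors' deposited table. In shRai1 the authors' deposited table had 9 members higher and 4 lower of 40, against 13.7% and 16.8% of all genes. Averaged over both arms, 16 of 46 members rose and 3 fell (Wald test with Benjamini-Hochberg adjustment over 18466 genes), where 15.3% and 17.2% of all genes did so. The median log2 change over the 46 was 0.09, against 0.01 over all genes tested.

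Rnf112, a brain-enriched RING finger GTPase, changed most under TTX. At chr11:61261919-61267494, it had 9.65 FPKM in shCtrl vehicle, 20.4 in TTX and 5.10 in BIC. The authors' interval for vehicle, from 6.82 to 12.5, does not meet that for TTX, from 15.3 to 25.6, and overlaps that for BIC, from 3.29 to 6.91. Its average TTX change on the log2 scale was 1.11 (SE 0.11, 2.15-fold, adjusted p 1.26e-23). The authors' deposited tables gave 1.27 (SE 0.16) in shCtrl and 0.94 (SE 0.14) in shRai1.

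Among members averaging 0.5 FPKM or more, 4 others followed. Slc5a10, which rose by 0.56 (SE 0.16, adjusted p 0.00191), was just under that level. In the shCtrl arm vehicle and TTX had 0.571 and 0.561 FPKM of Slc5a10, and it did not pass in shRai1 in the authors' deposited table (0.33, adjusted p 0.232). Gm16515, now named Natd1 and predicted to be an acetyltransferase, rose by 0.56 on average (SE 0.11, adjusted p 2.17e-06), with 5.59 FPKM in shCtrl vehicle and 8.04 in TTX. Prpsap2, which binds the enzyme that makes the ribose precursor of nucleotides, rose by 0.53 (SE 0.06, adjusted p 1.78e-16) and the authors' deposited tables gave 0.52 in shCtrl and 0.54 in shRai1. Top3a, a topoisomerase of nucleus and mitochondria, rose by 0.51 (SE 0.09, adjusted p 3.73e-08), from 1.98 to 3.02 FPKM in shCtrl. Llgl1, a cell polarity gene, rose by 0.46 (SE 0.09, adjusted p 1.85e-06), and its interval is shared with Flii, which did not pass (0.01, SE 0.12, adjusted p 0.971).

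The 3 falls were smaller. Lrrc48, a subunit of the dynein regulatory complex of cilia, fell by 0.37 on average (SE 0.10, adjusted p 0.000832). Tmem11, a protein of the inner mitochondrial membrane, fell by 0.26 (SE 0.07, adjusted p 0.00068). Cops3, a subunit of the COP9 signalosome, fell by 0.14 (SE 0.06, adjusted p 0.0435), a call that did not hold under every alternative.

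By role the groups are small, some members belong to more than 1 of them, and their counts were not tested against the 15.3% of all genes that rose and the 17.2% that fell under TTX. Of 8 members in autophagy, ubiquitin and lysosome signalling, 5 rose (Flcn, Gid4, Rnf112, Ulk2 and Usp22) and 1 fell. Of 6 mitochondrial members 3 rose (Atpaf2, Mief2 and Top3a) and 1 fell, where Mief2 passed in neither arm alone in the authors' deposited tables (adjusted p 0.115 and 0.197). Of 9 in lipid, one-carbon and nucleotide metabolism 3 rose (Aldh3a2, Dhrs7b and Prpsap2). Among 10 tested kinases, GTPases, transporters and adaptors 2 rose, Map2k3 and Slc5a10, and among 7 polarity, cytoskeleton and cilium genes 2 rose (Llgl1 and B9d1) and 1 fell. Of 7 in transcription and chromatin 2 rose, Top3a and Usp22, and the averages for Rai1 (-0.06, SE 0.05, adjusted p 0.366) and Srebf1 (-0.07, SE 0.07, adjusted p 0.548) did not pass. The FPKM of Atpaf2, Dhrs7b, B9d1 and Slc5a10 in shCtrl was lower in TTX than in vehicle, with overlapping intervals, so for these 4 the tables differ in direction.

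**Figure D2:**
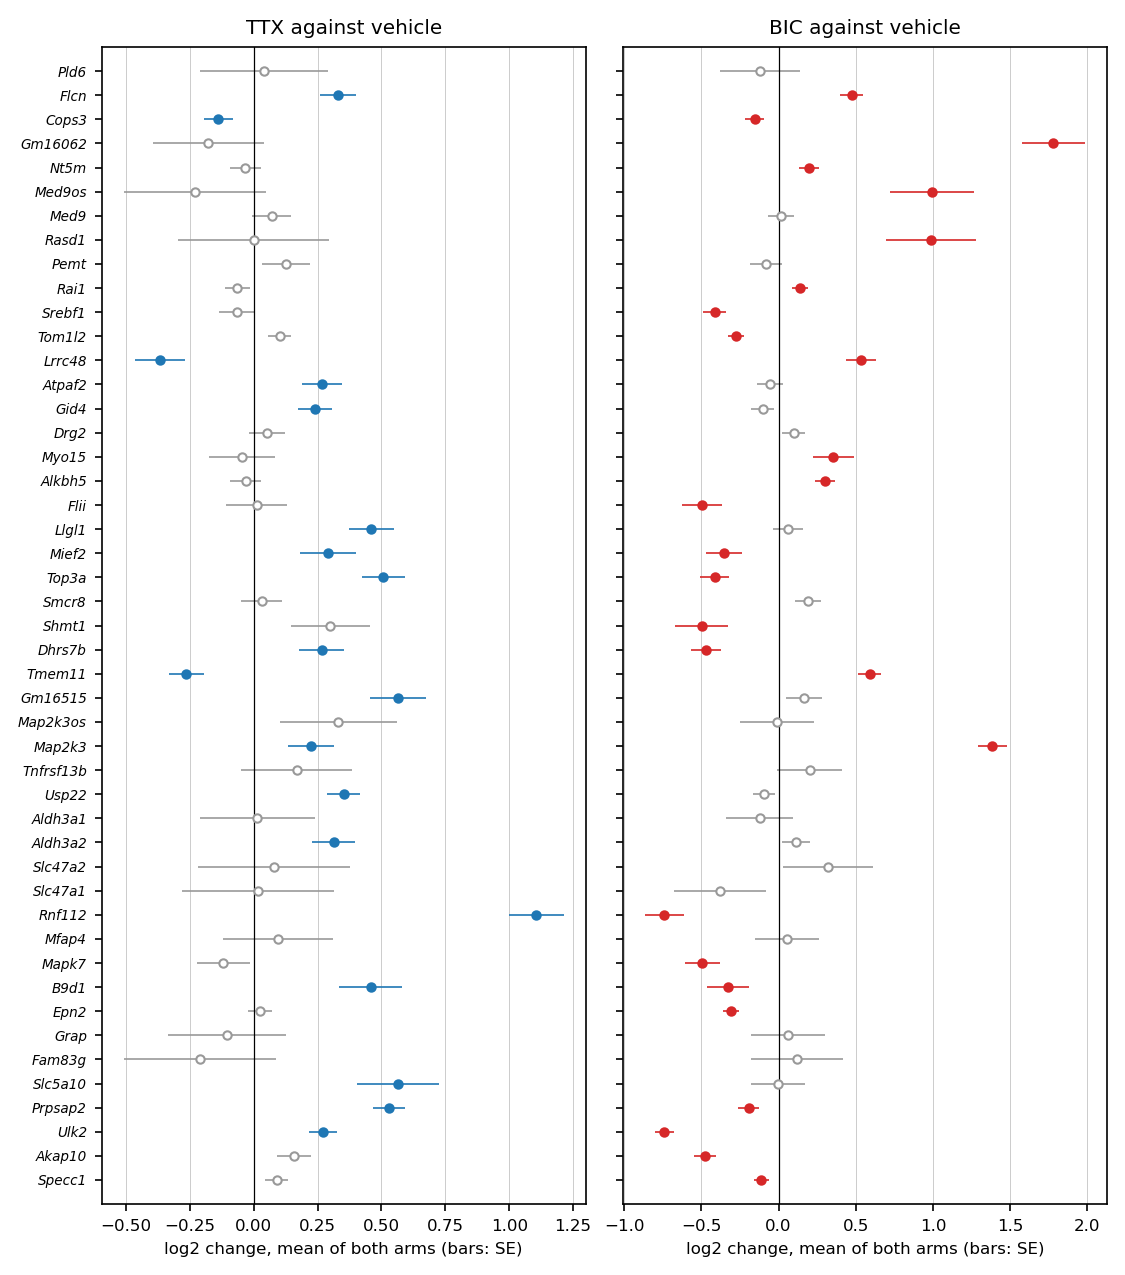
Log2 change under TTX (left) and BIC (right) against vehicle, averaged over the shCtrl and shRai1 arms, for the 47 interval genes in chromosomal order. Points are averages, bars are standard errors, and filled points passed an adjusted p under 0.05. TTX shows 16 filled points above 0 and 3 below, and BIC 11 above and 16 below, with Gm16062 (1.78) and Map2k3 (1.38) farthest to the right.

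Raised activity moved more of the interval, in both directions. In the authors' deposited table for BIC in shCtrl, 8 of 43 members rose and 9 fell, where 17.4% of all 16692 genes rose and 17% fell. In shRai1 the authors' deposited table gave 8 higher and 14 lower of 44, against 21.3% and 21.3%. Averaged over the arms, 11 of 46 rose and 16 fell, against 22.1% and 23.3% of all genes, so the share of rises was near the background. The median change of the 46 was -0.03, against -0.00075 over all genes tested.

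Map2k3 (chr11:60745559-60766305), the kinase gene that feeds the p38 stress pathway, rose from 4.54 FPKM in shCtrl vehicle to 13.4 in BIC. Its vehicle interval, from 2.59 to 6.49, lies below that for BIC, from 9.38 to 17.4. The average change was 1.38 (SE 0.09, 2.61-fold, adjusted p 3.52e-47), and the authors' deposited tables gave 1.47 (SE 0.15) in shCtrl and 1.30 (SE 0.12) in shRai1. Tmem11 rose by 0.59 (SE 0.07, adjusted p 2.16e-15), and the authors' deposited tables gave 0.59 in both arms.

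Several low entries rose too, and they are less certain. Gm16062, a noncoding entry with a mean normalized count of 35.0, rose by 1.78 (SE 0.20, adjusted p 3.44e-17). Its FPKM was 10.3 in shCtrl vehicle and 9.23 in BIC and did not follow, and its interval is shared with Cops3. Rasd1, a Ras-like GTPase induced by glucocorticoids, rose by 0.99 (SE 0.29, adjusted p 0.00215) at a mean normalized count of 6.82, with 3.11 FPKM in vehicle and 6.39 in BIC. Med9os, the divergent neighbour of Med9, rose by 0.99 (SE 0.27, adjusted p 0.000804) at a similarly low count. The FPKM of Med9os was 4.42 in vehicle and 2.64 in BIC. Without stated use of strand in counting, reads of overlapping or antisense genes cannot be told apart.

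The falls were led by Ulk2 (chr11:61589100-61668594), a kinase that starts autophagy. Ulk2 had 11.8 FPKM in shCtrl vehicle, 13.1 in TTX and 6.16 in BIC, and the vehicle interval, from 8.88 to 14.7, lies above that for BIC, from 4.44 to 7.88. It fell by 0.74 on average (SE 0.06, adjusted p 7.63e-33), and the authors' deposited tables gave -0.78 (SE 0.095) in shCtrl and -0.70 (SE 0.075) in shRai1. Rnf112 fell by 0.74 as well (SE 0.13, adjusted p 2.79e-08). Shmt1, the cytosolic serine hydroxymethyltransferase, fell by 0.50 (SE 0.17, adjusted p 0.00984), Flii, an actin-binding coregulator, by 0.50 (SE 0.13, adjusted p 0.0005), and Mapk7, which encodes the kinase ERK5, by 0.49 (SE 0.11, adjusted p 3.92e-05). Shmt1 passed in neither arm alone in the authors' deposited tables (adjusted p 0.120 in shCtrl and 0.066 in shRai1), and its FPKM was 5.47 in vehicle and 5.90 in BIC.

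By role, again untested against the 22.1% of all genes that rose and the 23.3% that fell under BIC, 4 of 9 members in lipid, one-carbon and nucleotide metabolism fell under BIC (Srebf1, Shmt1, Dhrs7b and Prpsap2) and 1 rose (Nt5m, a mitochondrial nucleotidase). Nt5m passed in neither arm alone in the authors' deposited tables (adjusted p 0.0837 in shCtrl and 0.0649 in shRai1), and its shCtrl FPKM was 14.5 in vehicle and 13.8 in BIC. Of 8 autophagy, ubiquitin and lysosome members 4 fell (Ulk2, Rnf112, Tom1l2 and Cops3) and Flcn alone rose. Flcn, which couples lysosomes to mTORC1, rose by 0.47 (SE 0.08, adjusted p 1.8e-09) and had also risen under TTX, by 0.33 (SE 0.07, adjusted p 2.31e-05). In shCtrl its FPKM was 12.5 in vehicle, 16.2 in TTX and 15.7 in BIC. Of the 7 transcription and chromatin members 2 rose, Rai1 and Alkbh5, an RNA demethylase (0.30, SE 0.06), and 3 fell (Srebf1, Flii and Top3a). Of the 10 tested kinases, GTPases, transporters and adaptors 2 rose and 4 fell (Mapk7, Akap10, Epn2 and Specc1). Akap10, an anchor of protein kinase A, fell by 0.48 (SE 0.07). Of 6 mitochondrial members 2 rose (Tmem11 and Nt5m) and 2 fell (Mief2 and Top3a). Of 7 polarity, cytoskeleton, cilium and matrix members 2 rose (Lrrc48 and Myo15) and 2 fell (Flii and B9d1). Myo15 passed in neither arm alone in the authors' deposited tables (adjusted p 0.110 in shCtrl and 0.155 in shRai1). The call of Specc1 (-0.11, adjusted p 0.0499) was lost with centring (adjusted p 0.232).

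The members called under both drugs moved in opposite directions about as often as other genes did. Of 12 such members, 7 rose under TTX and fell under BIC (Mief2, Top3a, Dhrs7b, Rnf112, B9d1, Prpsap2 and Ulk2) and 2 did the reverse (Lrrc48 and Tmem11). Flcn and Map2k3 rose under both, and Cops3 fell under both. With centring Cops3 lost both calls (adjusted p 0.0624 and 0.111) and B9d1 its BIC call (0.0716), and Map2k3 lost its TTX call when all named genes were adjusted for (0.0504). Over all 4015 genes called under both drugs the shares were 37.7%, 40.1%, 7.97% and 14.3% in the same order. The drugs share their vehicle libraries, which enter both changes with the same sign.

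In chromosomal order, the BIC rises averaged over arms lay at the Rai1 side. All 11 of these rises were among the 29 members from Pld6 to Map2k3, where 8 others fell. Among the 18 members from Tnfrsf13b to Specc1, 17 of them tested, 0 rose and 8 fell on that average (Wald test with Benjamini-Hochberg adjustment). On the same average 0 rose at an unadjusted p under 0.05 as well. Over all genes 22.1% rose and 23.3% fell. Aldh3a2, in this distal stretch, did rise in shRai1 in the authors' deposited table (DESeq2, 0.31, SE 0.11, adjusted p 0.0197). In shCtrl it did not pass there (-0.08, adjusted p 0.712). The distal falls were those of Rnf112, Mapk7, B9d1, Epn2, Prpsap2, Ulk2, Akap10 and Specc1. The median BIC change was 0.06 in the first stretch and -0.12 in the second, and under TTX it was 0.05 and 0.16. The boundary was placed after the last averaged rise once the values were seen. The absence of averaged rises beyond it follows from that choice, and the difference was not tested.

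**Figure D3:**
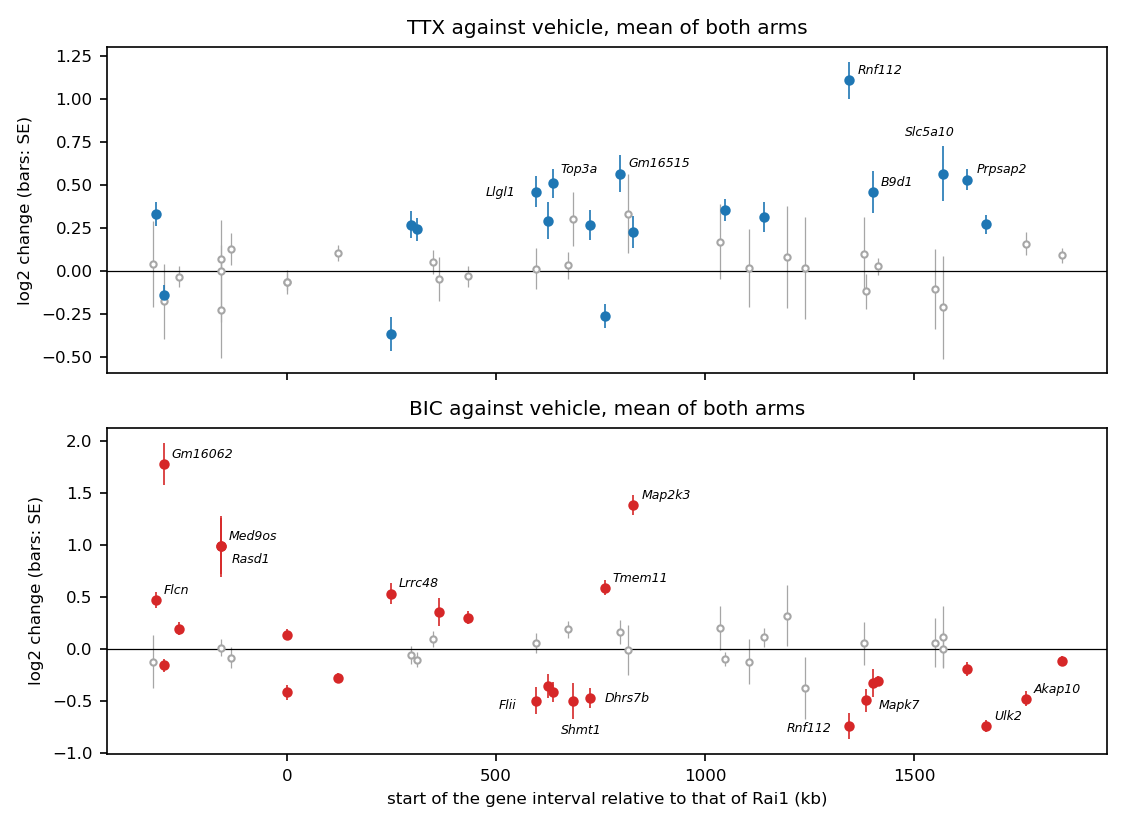
Log2 change under TTX (top) and BIC (bottom), averaged over arms, against the start of each gene interval relative to the start of the Rai1 interval, in kb. Filled points passed an adjusted p under 0.05, bars are standard errors, and names are given for called members beyond 0.45 in either direction. Under BIC the 11 rises lie at or before Map2k3, and the 8 called members to its right are all below 0.

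The windows of the same length on either side give the local background. Under BIC, averaged over arms, 46% of 50 tested genes in the window below and 35% of 20 in the window above were called, against 58.7% of the 46 members and 45.4% of all genes. For TTX the shares were 36%, 40%, 41.3% and 32.5%. The window below had 15 higher and 3 lower under TTX, much as the interval itself, while the window above had 1 higher and 7 lower. These counts were not tested against each other.

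Among the members, 5 pairs start close together on opposite strands, with promoter windows that overlap in RefSeq. Tom1l2 and Lrrc48 moved apart under BIC: Tom1l2 fell by 0.28 (SE 0.05, adjusted p 1.58e-07) and Lrrc48 rose by 0.53 (SE 0.10, adjusted p 3.73e-07). Both calls held in each arm in the authors' deposited tables, with -0.25 and -0.30 for Tom1l2 and 0.57 and 0.50 for Lrrc48. Lrrc48 FPKM, however, was 3.01 in shCtrl vehicle and 1.93 in BIC.

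Flcn and Gm16062, whose starts are 41 bases apart, rose together under BIC (0.47 and 1.78). The element printed above lies upstream of the Flcn start and just inside the Gm16062 transcript. Map2k3 rose by 1.38, and its divergent neighbour Map2k3os did not pass (-0.01, SE 0.24). Med9, a Mediator subunit, did not pass (0.02, SE 0.08), and Med9os rose. Atpaf2 and Gid4, the substrate receptor of a ubiquitin ligase, rose together under TTX (0.27 and 0.24) and neither passed under BIC. Differences within pairs were not tested, since the tables hold no covariance between genes.

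**Figure D4:**
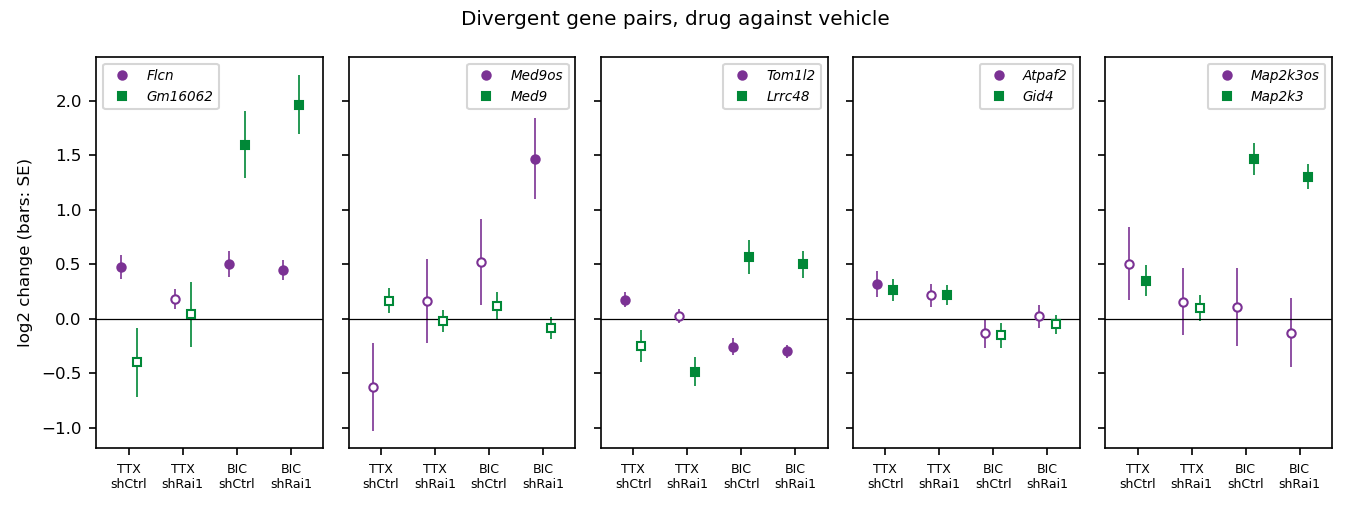
Log2 change against vehicle in the 4 drug comparisons of the authors' deposited tables for the 5 divergent gene pairs, with circles for the gene on the minus strand and squares for the gene on the plus strand. Bars are standard errors and filled symbols have an adjusted p under 0.05. Tom1l2 lies below 0 and Lrrc48 above 0 in both BIC comparisons.

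Knockdown was assessed with Rai1 first. An shRNA acts on finished transcripts, whereas Bru-seq reads RNA during its synthesis, so the nascent level is no measure of how far RAI1 was depleted. In the authors' deposited tables Rai1 in shRai1 against shCtrl changed by 0.16 in vehicle (SE 0.073, unadjusted p 0.0252, adjusted p 0.357), -0.12 in TTX (SE 0.064, unadjusted p 0.0523, adjusted p 1.00) and 0.03 in BIC (SE 0.073, unadjusted p 0.660, adjusted p 1.00). The libraries labelled shRai1 thus had no called change of nascent Rai1, and directions between the arms rest on the labels.

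Neighbours of Rai1 did not pass either. Of the members with an adjusted p, 0 of 38 passed in vehicle, 0 of 47 in TTX and 0 of 47 in BIC in the authors' deposited tables, where 0.857%, 0.0283% and 0.00944% of all genes did (DESeq2). At an unadjusted p under 0.05 the authors' deposited table for vehicle had 9 of 47 members (19.1%), against 8.17% of 20107 named genes. Of these 6 were higher (against 3.36%) and 3 lower (against 4.8%). For TTX the authors' deposited table had 0 members against 3.3%, and for BIC 3 (6.38%) against 2.93%. Averaged over the treatments, 0 of 46 passed an adjusted p under 0.05 in the Wald test, against 0.00548% of genes, and 4 had an unadjusted p under 0.05 (8.7% against 4.12%).

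The 9 members at an unadjusted p under 0.05 in vehicle included genes on both sides of Rai1. Flcn had the smallest p, with a change of 0.31 in the authors' deposited table (SE 0.11, p 0.00376, adjusted p 0.167). Its change was 0.02 in TTX and 0.26 in BIC (p 0.0122) in the authors' deposited tables, and 0.20 averaged over treatments (SE 0.06, p 0.000803, adjusted p 0.61). Slc5a10, a sugar transporter gene with a mean normalized count of 57.9, changed by 0.52, 0.05 and 0.55 in vehicle, TTX and BIC in the authors' deposited tables. Med9 (0.29), Drg2, a GTPase (0.26), and Nt5m (0.19) were the others above 0 beside Rai1 in the authors' deposited table for vehicle. Srebf1 (-0.24, p 0.0181), Ulk2 (-0.17, p 0.0406) and Epn2 (-0.15, p 0.0375) were below 0 in the authors' deposited table for vehicle. Epn2 also had the smallest p in BIC, with -0.24 in the authors' deposited table (SE 0.072, p 0.000637, adjusted p 0.587). Over the 38 members with an adjusted p in vehicle, 28 (73.7%) were above 0 and the median was 0.08, against 48.5% and -0.01 over all genes. The flanking windows also had medians above 0 in vehicle, 0.03 over 39 genes below and 0.05 over 20 genes above. These medians were not tested against each other. For the knockdown in TTX 53.2% of 47 members were above 0, with a median of 0.02, against 45.7% of all genes, and in BIC 59.6%, with a median of 0.04, against 52.9%.

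**Figure D5:**
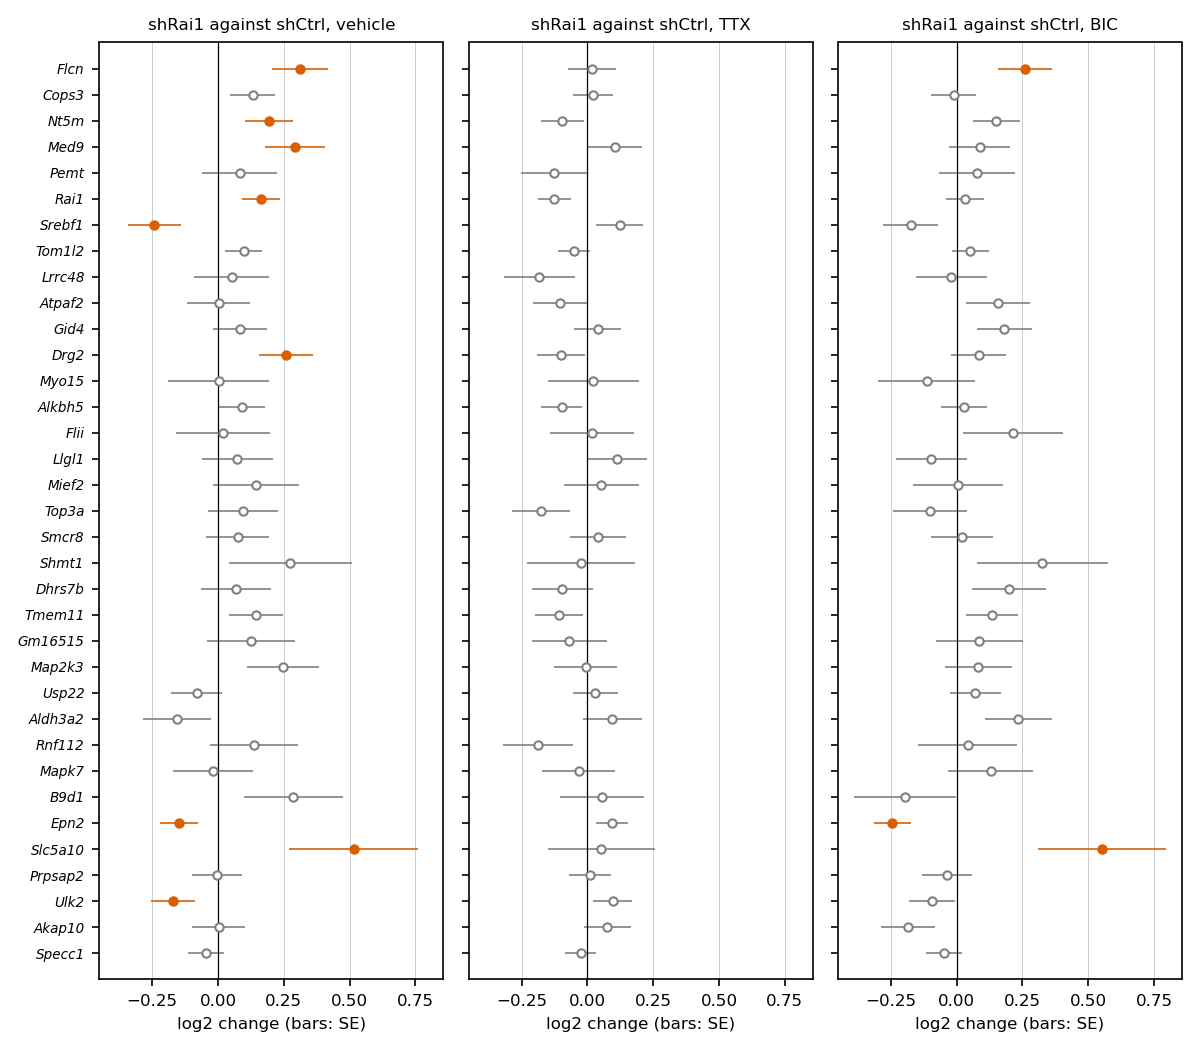
Log2 change of shRai1 against shCtrl in vehicle, TTX and BIC in the authors' deposited tables, for the 35 interval genes that averaged 50 or more normalized counts, in chromosomal order. Bars are standard errors and filled points have an unadjusted p under 0.05. No point passed an adjusted p under 0.05, and filled points number 9 in vehicle, 0 in TTX and 3 in BIC.

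Whether the knockdown altered a response was read by subtracting the shCtrl response from the shRai1 response. Under TTX 0 of 46 members passed the Wald test with Benjamini-Hochberg adjustment, against 0.926% of 18466 genes, and 7 had an unadjusted p under 0.05 (15.2% against 8.94%). For BIC 0 passed, against 0.0217%, and 1 had an unadjusted p under 0.05, Aldh3a2 (2.17% against 2.99%). The 7 for TTX were Rai1 (-0.29, SE 0.10, p 0.00305, adjusted p 0.156), Srebf1 (0.36, SE 0.14, p 0.0077, adjusted p 0.243), Drg2 (-0.36), Epn2 (0.24), Ulk2 (0.27), Nt5m (-0.29) and Flcn (-0.29). Each of these 7 also had an unadjusted p under 0.05 in the knockdown in vehicle, with the opposite sign, and both contrasts use the vehicle libraries. Over the 46 members 30 differences were below 0, with a median of -0.15 against -0.0016 over all genes.

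Rai1 and Srebf1, which lie end to end, did not have the same calls, and the difference between them was not tested. In the authors' deposited tables Rai1 rose under BIC in shCtrl (0.20, SE 0.082, adjusted p 0.0397) and fell under TTX in shRai1 (-0.21, SE 0.064, adjusted p 0.00598), and did not pass in TTX in shCtrl (0.08) or BIC in shRai1 (0.07). The rise in shCtrl is uncertain, since FPKM was 19.8 in vehicle and 19.3 in BIC, and it was lost without the authors' filter (adjusted p 0.0502). Srebf1 fell under BIC in both arms in the authors' deposited tables, by 0.45 in shCtrl (SE 0.12, adjusted p 0.000528) and by 0.38 in shRai1 (SE 0.092, adjusted p 0.000154). Averaged over arms, BIC changed Rai1 by 0.14 (SE 0.05, adjusted p 0.0197) and Srebf1 by -0.41 (SE 0.07, adjusted p 1.01e-07) in the Wald test. The FPKM of Srebf1 in shCtrl was 29.9 in vehicle, 25.0 in TTX and 23.3 in BIC, with overlapping intervals. Under TTX Srebf1 did not pass in shCtrl (-0.25, adjusted p 0.0565) or shRai1 (0.12, adjusted p 0.366) in the authors' deposited tables. The FPKM table gives both genes 1 shared interval.

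Over the 5 groups beside shCtrl vehicle, the genes whose log2 changes from shCtrl vehicle were closest to those of Rai1 were Csnk1d, Cabin1, Srrm1, Crtc3 and Csmd2, of 12332 compared. None of these genes is a member. Their Euclidean distances ran from 0.06 to 0.10 on the log2 scale. The Rai1 changes themselves were small, from -0.04 to 0.24, and all share the shCtrl vehicle libraries. Their SE in the authors' deposited tables was 0.073 for shCtrl TTX, 0.082 for shCtrl BIC and 0.073 for shRai1 vehicle. The distances are near these errors, so which genes rank closest is uncertain.

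Partners of RAI1 and targets of SREBP factors were read as lists beside the interval. Of 4 chromatin genes described in a complex with RAI1, 1 rose under TTX and 2 fell under BIC averaged over arms, against 15.3% and 23.3% of all genes. Tcf20 rose under TTX (0.33, SE 0.05) and fell under BIC (-0.88, SE 0.05), and Phf14 passed in neither. Of 32 SREBP target genes, 25 fell and 4 rose under BIC averaged over arms, with a median of -0.43, against 23.3% and 22.1% of all genes, and 22 fell and 1 rose under TTX, with a median of -0.39, against 17.2% and 15.3%. Srebf1 itself fell under BIC alone of these averages. In vehicle 4 of 31 target genes with an adjusted p were lower in shRai1 in the authors' deposited table, against 0.73% of all genes, among them Hmgcs1 (-0.47), Scd1 (-0.43) and Fads2 (-0.38), named after their values were seen. In TTX and in BIC 0 of 32 passed in the authors' deposited tables (DESeq2).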

How the data were processed

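Bru-seq values of 16 libraries in 6 groups were used as deposited, while 12 ChIP-seq samples were not used here. TopHat2 2.1.0, Bowtie2 2.2.6, DESeq2 and mm9 come from the submitters' processing notes. Counting rules and annotation are not given in the sources used here. The authors' FPKM table holds a pooled value and its bounds for each condition, per the file headers. For every gene, the 7 comparison tables that the authors deposited give a mean normalized count (a signal averaged over libraries after scaling), the log2 fold change with its standard error, a Wald score, and p-values before and after adjustment. Of 22919 genes, 21192 have a test.

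Gene names are missing from the file that compares the arms in vehicle. Its rows were named from mean counts that occur once (20107 genes, all 47 members), and log2 changes of members then closed around the 4 groups to 1.0e-09. With names of another table hidden, the rule recovered 20107 of 20107. Since that table holds the same mean counts, this checks the lookup only and not the file without names.

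Averages over arms or treatments and interactions were computed here from deposited log2 changes that share no library, adding squared standard errors, with a two-sided Wald test and Benjamini-Hochberg adjustment. Genes averaging 0.1 FPKM or more entered (18466, or 18241 for the average over treatments). On simulated data with 200 changed genes of 12287, log2 changes of 0.5 were recovered for 88.5% to 91% in the averaged responses and 23.5% to 34% in the interactions. Python 3.11.15 with pandas 2.3.3 and scipy 1.17.1 was used.

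FPKM columns named for the knockdown served only in means over the 6 columns and in the closing observations, since their treatment names did not follow the comparisons. Starts are printed 1-based. Members, gene lists and tests were chosen with earlier results of these data known. Any member may be named. Some genes of these lists are not reported here. Full statistics were given for Rai1, Srebf1 and the 5 largest rises and falls of each averaged response among members averaging 0.5 FPKM or more. Alternatives changed the filter, centring, threshold, members and source of the standard error.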

Additional observations from a re-analysis of the deposited data

How the results depend on the processing

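No paired analysis was possible because the files hold no value per library, and leaving out a replicate could not be done for the same reason, so how far single libraries carry a result is unknown. Counts of called members were recomputed without the authors' filter, over genes averaging 50 or more normalized counts, with centring on the median gene, at adjusted p thresholds of 0.01 and 0.1, and without members that share an interval. At an adjusted p under 0.01 the 14 members called under TTX in shCtrl became 7. Every other count of members called in either direction stayed within 1.5 times of its main value. By direction, leaving out members that share an interval took the rises under BIC in shCtrl from 8 to 5 and the falls under TTX in shRai1 from 4 to 2, and the 0 falls under TTX in shCtrl became 1 at an adjusted p under 0.1. Of 205 values of single members under the filter, centring and error alternatives, 197 kept their direction and side of the threshold, 7 no longer passed, 1 newly passed and 0 reversed. The one that newly passed was Srebf1 under TTX in shCtrl (-0.25, adjusted p 0.0471 over genes with a count of at least 50). The loss beyond those given above was Specc1 under BIC with all named genes (0.0566). The medians used for centring ran from -0.04 to 0.01.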

Other observations

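The treatment names of the FPKM columns were compared with the comparison tables over the called members. In the shCtrl columns, 10 of 14 members called under TTX and 14 of 17 called under BIC in the authors' deposited tables moved the same way in FPKM. In the columns named for the knockdown, 1 of 13 called under TTX in shRai1 in the authors' deposited table did so, and 14 of 22 called under BIC. Rnf112, which rose under TTX and fell under BIC in shRai1 in the authors' deposited tables, was listed at 17.5 FPKM in the knockdown column named untreated, 5.87 in the one named TTX and 9.78 in the one named BIC. Map2k3, which rose under BIC, was listed at 5.80, 11.6 and 4.94 FPKM in the same order.

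The members called under neither drug on average numbered 13, of which 12 were tested (26.1% of 46, against 43.8% of all genes tested) and Slc47a2 was under the FPKM filter. They were Pld6, Med9, Pemt, Drg2, Smcr8, Map2k3os, Tnfrsf13b, Aldh3a1, Slc47a2, Slc47a1, Mfap4, Grap and Fam83g. Smcr8, an autophagy regulator at 19.9 FPKM in shCtrl vehicle, came closest under BIC (0.19, SE 0.08, adjusted p 0.0562). Pemt, which makes phosphatidylcholine in liver and lies next to Rai1, changed by 0.13 under TTX (SE 0.10) and -0.08 under BIC (SE 0.10). Of the 7 members called under TTX in both arms in the authors' deposited tables (Gid4, Llgl1, Top3a, Gm16515, Usp22, Rnf112 and Prpsap2), 7 had the same direction, which is 50% of the shCtrl calls and 53.8% of the shRai1 calls, against 68.9% and 60.2% over all genes. For BIC 15 were called in both arms with the same direction in the authors' deposited tables, 88.2% and 68.2% of the calls, against 90.4% and 69.8% over all genes.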
